A study of Mus musculus with 6 samples.

Results

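RNA-Seq of mouse embryonic fibroblasts (MEFs) was used to describe 10 genes of the endoplasmic reticulum (ER): the luminal chaperones and folding factors Hspa5, Hsp90b1, Pdia4, Dnajb9, Sdf2l1, Hyou1 and Calr, and the unfolded protein response (UPR) regulators Xbp1, Ern1 and Atf6. They were chosen by name among the 51499 loci of the count table, with earlier results of these data known. Each matched exactly 1 locus, and all 10 passed the filter on low counts, which 14499 loci passed in total. WT MEFs were transfected with Scr siRNA, the non-targeting control, or with Yme1l siRNA and collected after 72 h, with 3 independent cultures per group. Yme1l encodes YME1L, an i-AAA protease of the mitochondrial inner membrane, and the comparison asks how ER folding genes behave when this mitochondrial protease is depleted. The cells of both groups carry a WT genotype. The labels call them 3T3 immortalized, whereas the methods describe MEFs from Yme1l loxP/loxP animals that were immortalized with SV40 large T antigen and expanded as clones, so the libraries may stand for few clones, and both groups share that origin.

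The ER lumen folds secreted and membrane proteins with HSP70 and HSP90 chaperones, lectin chaperones that read N-linked glycans, and protein disulfide isomerases. When unfolded proteins accumulate, the UPR is switched on through the sensors IRE1α (gene Ern1), ATF6 and PERK (gene Eif2ak3). IRE1α splices the Xbp1 mRNA in the cytosol so that it encodes an active transcription factor, ATF6 is cut in the Golgi to release a transcription factor, and PERK phosphorylates eIF2α. Transcription factors of the response bind the ER stress response element (ERSE), CCAAT and CCACG separated by 9 bases, in the promoters of chaperone genes. Fibroblasts secrete large amounts of collagen and other matrix proteins and depend on this machinery.

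Exact copies of the ERSE were searched on both strands in RefSeq promoter windows (GRCm38.p6) from 250 bases before to 50 bases after the transcription start. A window was held for 8 of the 10 genes, all but Hyou1 and Atf6, and 3 of these 8 held the element, Hspa5, Hsp90b1 and Calr, against 0.119% of 32851 windows over all genes. Hsp90b1 held 2 copies, which do not overlap. The 250 bases before the start are printed for these 3 genes because they hold the element that the chaperone genes are known for, and for Sdf2l1 because it had the largest fold change without an exact copy. Capitals mark the element, which reads CGTGG to ATTGG where it lies on the opposite strand. The windows are chr2:34771840-34772089 (+ strand) for Hspa5, chr10:86705445-86705694 (− strand) for Hsp90b1, chr8:84846932-84847181 (− strand) for Calr and chr16:17132384-17132633 (− strand) for Sdf2l1, each written 5′ to 3′ in the direction of the gene.
Hspa5: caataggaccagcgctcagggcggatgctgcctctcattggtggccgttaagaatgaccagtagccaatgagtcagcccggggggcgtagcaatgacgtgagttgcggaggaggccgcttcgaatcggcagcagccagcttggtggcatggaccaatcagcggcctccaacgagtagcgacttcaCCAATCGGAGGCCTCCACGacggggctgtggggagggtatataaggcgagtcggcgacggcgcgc
Hsp90b1: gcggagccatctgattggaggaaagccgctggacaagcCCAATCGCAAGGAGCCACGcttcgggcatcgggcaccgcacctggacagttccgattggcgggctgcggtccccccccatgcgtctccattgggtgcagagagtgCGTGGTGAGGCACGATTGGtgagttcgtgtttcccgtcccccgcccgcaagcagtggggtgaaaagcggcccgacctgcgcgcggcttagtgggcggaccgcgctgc
Calr: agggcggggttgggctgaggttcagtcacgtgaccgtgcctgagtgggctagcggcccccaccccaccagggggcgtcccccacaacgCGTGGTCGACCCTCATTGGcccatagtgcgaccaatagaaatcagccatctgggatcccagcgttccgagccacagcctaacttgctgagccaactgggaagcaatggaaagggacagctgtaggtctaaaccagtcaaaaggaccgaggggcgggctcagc
Sdf2l1: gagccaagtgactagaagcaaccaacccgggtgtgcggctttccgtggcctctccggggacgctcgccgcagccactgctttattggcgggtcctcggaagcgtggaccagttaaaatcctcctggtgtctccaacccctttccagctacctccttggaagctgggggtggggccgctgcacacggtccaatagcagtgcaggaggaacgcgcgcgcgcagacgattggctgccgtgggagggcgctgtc
Counted from the RefSeq start, the element spans −65 to −47 in Hspa5, −212 to −194 and −107 to −89 in Hsp90b1, and −162 to −144 in Calr. GENCODE M21 also places transcript starts upstream of the RefSeq start for Hspa5, Hsp90b1 and Calr. The second form of the element, ATTGG and CCACG separated by 1 base, was in 0 of the 8 windows and in 0.0365% of all windows, and the core TGACGTGG was in 0 of 8 and in 0.676% of all windows. A match describes letters in a window, and its absence says nothing about binding.

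The libraries held between 37260605 and 45205207 counts. Levels are given as CPM, the counts of a locus per 1000000 counts of its library, with library sizes scaled by edgeR's TMM factors, and fold changes, standard errors (SE) and Benjamini-Hochberg adjusted p-values come from edgeR's quasi-likelihood test over all 14499 loci, with a threshold of 0.05. The knockdown was visible in every library: Yme1l1, the targeted gene, was at 170.5, 171.3 and 170.6 CPM in Scr and at 31.63, 23.44 and 45.04 CPM in Yme1l siRNA, which is 18.5%, 13.7% and 26.4% of the Scr mean. The groups differed widely across the transcriptome, with 58.0% of the loci tested called in either direction. Of these, 28.4% of all loci were higher and 29.6% lower in Yme1l siRNA, and the median log2 fold change was 0.009. Marker levels are given in CPM of the unscaled library totals. Of 10 fibroblast markers, 8 were at 1 CPM or more in every library, while Thy1 and Lum were near 0. The summed level of the fibroblast markers ranged from 33900 to 39100 CPM in Scr and from 18400 to 22800 CPM in Yme1l siRNA. Most of it came from the matrix genes Col1a1, Col1a2, Col3a1 and Fn1, each lower in every Yme1l siRNA library than in every Scr library. Pdgfrb, S100a4 and Dcn were lower in the same way. Vim overlapped between the groups, at 3210 to 3700 CPM in Scr and 2990 to 3360 CPM in Yme1l siRNA. Summed markers ranged in Scr and in Yme1l siRNA, respectively, from 0.111 to 0.188 and 0.847 to 1.38 CPM for epithelial cells, from 3.63 to 4.10 and 5.86 to 7.96 CPM for endothelial cells, from 3.16 to 3.65 and 2.42 to 3.46 CPM for muscle, and from 1.66 to 1.79 and 0.756 to 0.871 CPM for neural cells. For immune cells they ranged from 41.4 to 53.4 CPM in Scr and from 26.2 to 60.0 CPM in Yme1l siRNA, nearly all of it Cd68, with Ptprc, Adgre1, Cd3e and Itgam at 3 counts or fewer. The part of these shifts in the results below was not tested. In bulk RNA, fewer cells of a type and less RNA per cell cannot be told apart.

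Of the 10 genes, 6 rose after Yme1l knockdown (Hspa5, Hyou1, Sdf2l1, Dnajb9, Ern1 and Atf6), 2 fell (Xbp1 and Pdia4) and 2 did not pass the test (Hsp90b1 and Calr). The 8 called genes compare with a background of 58.0% of all loci, and the 6 that rose with 28.4%. The Scr and Yme1l siRNA values did not overlap for 8 of the 10, against 65.4% of all loci. The median log2 fold change of the 10 genes was 0.37, and 1 of them, Sdf2l1, changed at least 2-fold. The direction was thus not shared by the 10 genes, and the chaperones and the regulators each held genes with different calls.

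**Figure D1:**
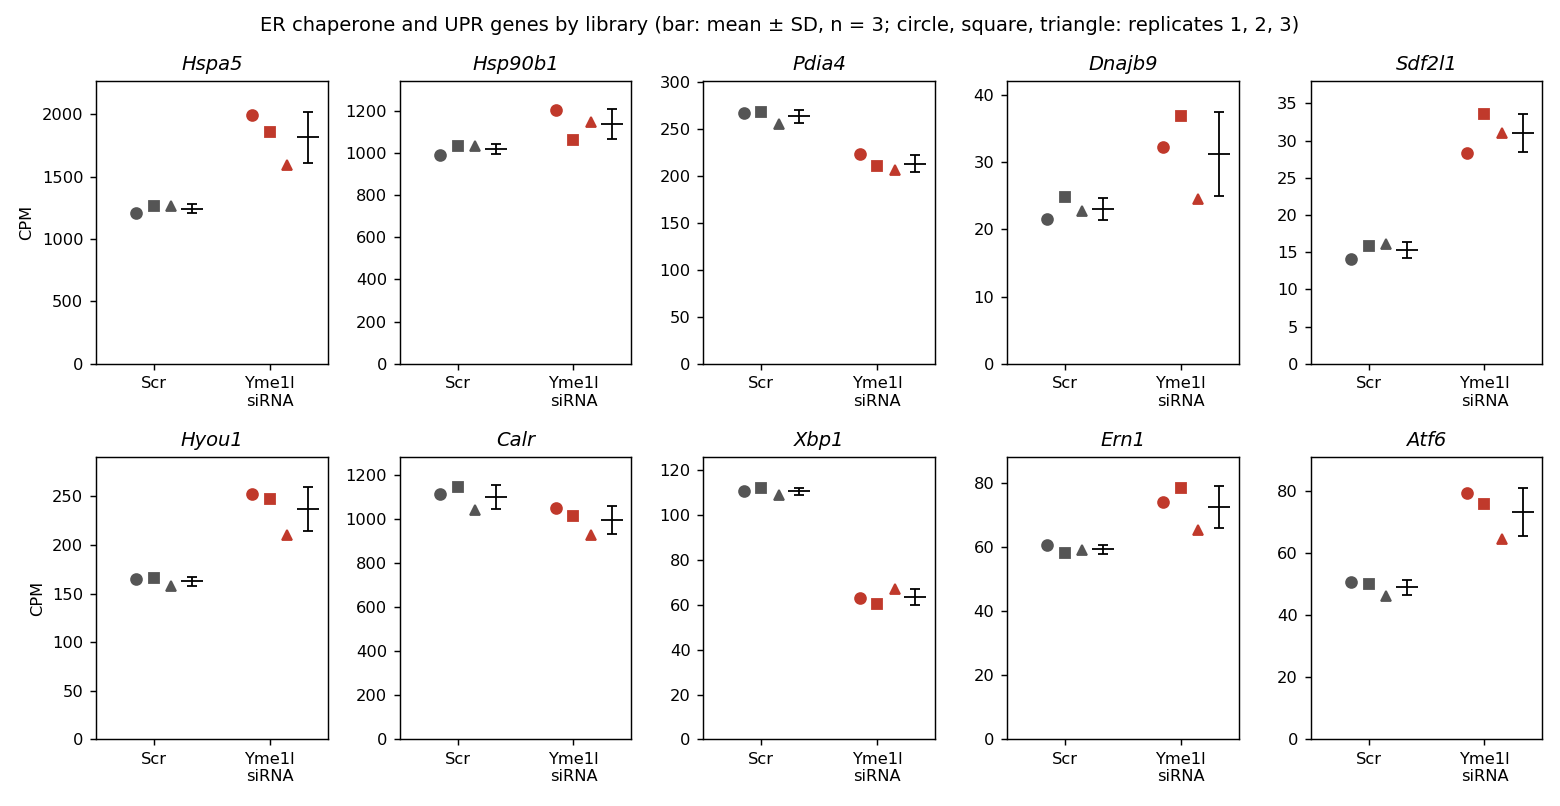
Level of each of the 10 genes in CPM (linear axis from 0) in the 3 Scr and the 3 Yme1l siRNA libraries; points are libraries and bars the mean ± SD, n = 3. Hspa5, Hyou1, Sdf2l1, Ern1, Atf6 and Hsp90b1 lie higher without overlap in Yme1l siRNA, Xbp1 and Pdia4 lie lower without overlap, and the groups overlap for Dnajb9 and Calr.

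**Figure D2:**
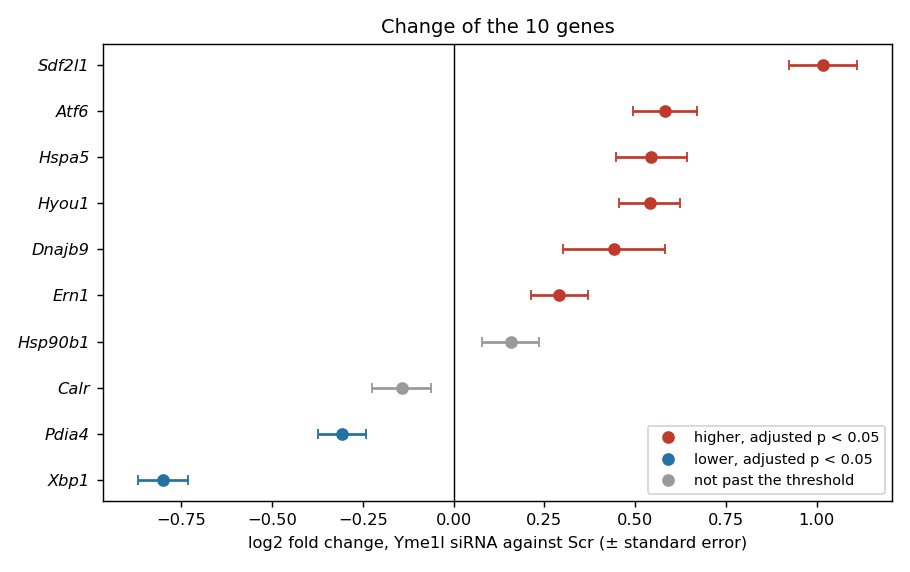
Log2 fold change of Yme1l siRNA against Scr for the 10 genes, with error bars of 1 SE from edgeR's quasi-likelihood fit. The values run from −0.80 for Xbp1 to 1.02 for Sdf2l1.

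Hspa5 encodes BiP, the HSP70 chaperone of the ER lumen that binds unfolded chains and holds the UPR sensors inactive. The gene lies at chr2:34771970-34777547 (+ strand, mm10). It was at 1206, 1263 and 1263 CPM in Scr and at 1996, 1856 and 1593 CPM in Yme1l siRNA. Every Yme1l siRNA library was above every Scr library, and replicate 3 was the lowest of its group. The means were 1244 ± 32.7 and 1815 ± 204.6 CPM (SD, n = 3), a log2 fold change of 0.55 (SE 0.10, edgeR adjusted p = 0.00149) or 1.46-fold. Hspa5 was the most abundant of the 10 genes in CPM in both groups, and ranked 52 among all loci in Scr.

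Hyou1 encodes the large HSP70-like protein GRP170, which releases ADP from BiP and so drives its cycle. It lies at chr9:44379490-44392369 (+ strand). It was at 164.9, 165.8 and 157.6 CPM in Scr and at 252.1, 247.2 and 210.6 CPM in Yme1l siRNA, again without overlap and with replicate 3 the lowest of the knockdown. Its log2 fold change was 0.54 (SE 0.08, edgeR adjusted p = 0.000736). Its size and its pattern over the libraries were close to those of Hspa5: within each library there were between 0.125 and 0.137 Hyou1 counts per Hspa5 count, with group means of 0.131 ± 0.006 in Scr and 0.131 ± 0.004 in Yme1l siRNA that overlapped.

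Sdf2l1, a small luminal protein that works with the ER DnaJ co-chaperones of BiP, had the largest fold change of the 10. The gene lies at chr16:17130138-17132383 (− strand). It was at 14.11, 15.77 and 16.07 CPM in Scr and at 28.38, 33.54 and 31.06 CPM in Yme1l siRNA. The lowest knockdown value was well above the highest control value, and here replicate 1, not replicate 3, was the lowest of the knockdown. The means of 15.32 ± 1.05 and 31.00 ± 2.58 CPM (SD, n = 3) differed by 1.02 on the log2 scale (SE 0.09, edgeR adjusted p = 4.8e-05), or 2.02-fold. The level stayed small beside that of BiP, with 0.0123 Sdf2l1 counts per Hspa5 count in Scr and 0.0173 in Yme1l siRNA.

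Dnajb9 encodes ERdj4, a J-domain co-chaperone of BiP that takes part in ER-associated degradation and in holding IRE1α inactive. It lies at chr12:44205559-44210326 (− strand). It was at 21.60, 24.80 and 22.68 CPM in Scr and at 32.35, 36.86 and 24.56 CPM in Yme1l siRNA. Replicates 1 and 2 of the knockdown were above all controls, but replicate 3 was below replicate 2 of Scr, so the groups overlapped. The log2 fold change was 0.44 (SE 0.14, edgeR adjusted p = 0.0247). The call did not hold in every fit with 1 library left out. It was lost without replicate 1 of Scr (0.40, edgeR adjusted p = 0.0795) or replicate 3 of Scr (0.43, adjusted p = 0.0631). The same held without replicate 1 of Yme1l siRNA (0.42, adjusted p = 0.0742) or replicate 2 of Yme1l siRNA (0.31, adjusted p = 0.0719). Of these fits, only the one without replicate 2 of Yme1l siRNA changed the log2 fold change by much. Leaving out a library also lowered the number of all loci called higher, to between 3433 and 4075 from 4123. A lost call thus need not reflect the library left out. Without replicate 3 of Yme1l siRNA the log2 fold change was 0.59 (edgeR adjusted p = 0.000899). A processed pseudogene, Gm6568, shares 93.3% of 697 aligned bases with Dnajb9 and had 0 counts.

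Hsp90b1 encodes GRP94, the HSP90 chaperone of the ER lumen, which folds integrins and Toll-like receptors. It lies at chr10:86690209-86705509 (− strand). It was at 992.3, 1032 and 1035 CPM in Scr and at 1203, 1060 and 1148 CPM in Yme1l siRNA. All knockdown values were above all control values, but the log2 fold change of 0.16 (SE 0.08) did not pass the test (edgeR adjusted p = 0.113). Without replicate 2 of Yme1l siRNA it was 0.21 (edgeR adjusted p = 0.0475). That replicate was the knockdown library nearest to Scr, so a larger fold change without it follows from the choice of library. It also had the least remaining Yme1l1. Hsp90b1 did not pass the test with any other single library left out. Its log2 fold change was lowest without replicate 1 of Yme1l siRNA (0.115, edgeR adjusted p = 0.345). Its exons overlap 1810014B01Rik on the other strand, a locus with at most 157 counts in a library, and whether the counting used the strand is not given in the sources used here. While Hsp90b1 had 1 count for 1.22 ± 0.004 of Hspa5 in Scr, the ratio was 1.60 ± 0.19 in Yme1l siRNA (SD, n = 3), without overlap.

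Calr encodes calreticulin, a soluble lectin chaperone that binds calcium and N-glycosylated proteins. It lies at chr8:84841850-84846934 (− strand). It was at 1115, 1147 and 1041 CPM in Scr and at 1051, 1013 and 927.9 CPM in Yme1l siRNA. The groups overlapped, and the log2 fold change of −0.14 (SE 0.08) did not pass the test (edgeR adjusted p = 0.163). Its membrane-bound counterpart Canx, calnexin, rose from 590.0 ± 11.6 to 822.9 ± 48.4 CPM (log2 fold change 0.48, SE 0.07, edgeR adjusted p = 0.000714). Canx was singled out after its values were seen, and the difference between the changes of Calr and Canx was not tested. Per kb of exon, Calr was the most abundant of the 10 genes in Scr, at 382 CPM per kb, followed by Hspa5 at 294 and Hsp90b1 at 253, whereas in Yme1l siRNA Hspa5 came first at 429 CPM per kb, followed by Calr at 346 and Hsp90b1 at 282. Below them in Scr came Pdia4 (110 CPM per kb), Xbp1 (34.0), Hyou1 (22.5), Sdf2l1 (13.8), Dnajb9 (9.03), Ern1 (7.25) and Atf6 (5.30), with no overlap between neighbours over the libraries. In Yme1l siRNA the order was Pdia4 (88.8), Hyou1 (32.7), Sdf2l1 (28.0), Xbp1 (19.5), Dnajb9 (12.3), Ern1 (8.88) and Atf6 (7.94), with overlap between Hyou1 and Sdf2l1 and between Ern1 and Atf6. Xbp1 thus stood above Hyou1 and Sdf2l1 in Scr and below both after the knockdown.

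Pdia4 encodes ERp72, a protein disulfide isomerase that forms and reshuffles disulfide bonds. It lies at chr6:47796141-47813430 (− strand). It was at 267.3, 267.4 and 255.6 CPM in Scr and at 223.1, 210.4 and 205.7 CPM in Yme1l siRNA. It was lower in every knockdown library than in every control library, with means of 263.4 ± 6.80 and 213.1 ± 8.97 CPM (SD, n = 3). The log2 fold change was −0.31 (SE 0.07, edgeR adjusted p = 0.00425). Hspa5 and Pdia4 therefore moved apart, from 4.73 ± 0.21 Hspa5 counts per Pdia4 count in Scr to 8.50 ± 0.66 in Yme1l siRNA.

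The 3 regulators changed in different directions. Atf6, the membrane-bound transcription factor that is released by cleavage, was at 50.79, 49.99 and 46.12 CPM in Scr and at 79.54, 75.76 and 64.59 CPM in Yme1l siRNA. All knockdown values were higher, with replicate 3 again the lowest of its group, and the log2 fold change was 0.58 (SE 0.09, edgeR adjusted p = 0.000692). The gene lies at chr1:170704674-170867771 (− strand). Ern1, which encodes the kinase and endoribonuclease IRE1α, lies at chr11:106394650-106487852 (− strand). It was at 60.65, 58.03 and 59.18 CPM in Scr and at 73.90, 78.31 and 65.45 CPM in Yme1l siRNA. Here too the groups did not overlap, with a smaller log2 fold change of 0.29 (SE 0.08, edgeR adjusted p = 0.0121).

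Xbp1, the substrate of IRE1α, fell. It lies at chr11:5520659-5525893 (+ strand). It was at 110.6, 111.9 and 109.1 CPM in Scr and at 62.81, 60.44 and 67.23 CPM in Yme1l siRNA. The knockdown values lay far below the controls, which spread little, and the log2 fold change was −0.80 (SE 0.07, edgeR adjusted p = 3.61e-05), or 0.574-fold. Within libraries, Xbp1 went from 1.87 ± 0.06 to 0.883 ± 0.13 counts per Ern1 count and from 2.26 ± 0.10 to 0.876 ± 0.14 counts per Atf6 count (SD, n = 3), neither with overlap. The counts sum over the locus and do not separate the spliced Xbp1 mRNA from the unspliced form, and neither cleavage of ATF6 nor activity of IRE1α is measured by them.

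As a group, the 10 genes took 4003, 4136 and 4005 CPM in Scr and 5002, 4672 and 4338 CPM in Yme1l siRNA. The sum was higher in every knockdown library, with group means of 4050 and 4670 CPM. Most of that rise lay in Hspa5, with means of 1244 and 1815 CPM. The makeup of the sum shifted, and a rise of Hspa5 by itself lowers the shares of the others. The CPM of Calr, for example, overlapped between the groups. Hspa5 went from 30.7% ± 0.72 to 38.8% ± 1.79 of the summed CPM, Calr from 27.2% ± 1.04 to 21.4% ± 0.34, Pdia4 from 6.51% ± 0.15 to 4.57% ± 0.15 and Xbp1 from 2.73% ± 0.03 to 1.37% ± 0.16 (SD, n = 3), each without overlap. The share of Hsp90b1, 25.2% ± 0.57 and 24.4% ± 1.91, overlapped between the groups. Replicate 3 of Yme1l siRNA, the library with the most remaining Yme1l1, was the lowest of its group in 5 of the 6 genes that rose, with Sdf2l1 as the exception. Replicate 2, with the least remaining Yme1l1, was the highest in 3 of the 6, and replicate 1 was the highest in 3. How often replicate 3 was lowest among all loci called higher was not counted. Replicate 3 also had the lowest Pdia4 and Calr and the highest Xbp1 of its group. Without that library the same counts of 6 higher and 2 lower genes were called, and the part of the knockdown's depth in this pattern was not tested.

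The loci whose pattern over the 6 libraries was nearest to that of Hspa5, by root mean square distance of log2 CPM after subtraction of each locus's own mean, were Gm6627 (0.0307), Retreg1 (0.0376), Usp53 (0.0379), Hyou1 (0.0448) and Cyb5r1 (0.0487). Hyou1 was thus the fourth nearest of all loci tested. Gm6627 was called higher (0.56, edgeR adjusted p = 0.0117), but not without replicate 1 of Yme1l siRNA (0.48, adjusted p = 0.0533). Retreg1 encodes a receptor for ER-phagy, and Cyb5r1 a cytochrome b5 reductase. Atf6 ranked 15, Dnajb9 662, Ern1 882 and Hsp90b1 2858, and Sdf2l1, with its larger change, ranked 4471. Calr ranked 6349, Pdia4 8293 and Xbp1 12151.

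The rest of the ER machinery, 154 loci in lists by role, showed no shared direction. Of 151 loci tested, 38 were higher and 47 lower in Yme1l siRNA, and the median log2 fold change was 0.00, against 28.4% higher and 29.6% lower among all loci. The genes named below have the smallest adjusted p-values of their list, between 6.01e-06 and 0.0012 (edgeR), unless said otherwise. Among 21 other ER chaperones and co-chaperones, 5 rose and 8 fell. Cnpy2, a small luminal protein, had a log2 fold change of −2.01, Dnajc10, the co-chaperone and disulfide reductase ERdj5, of −1.42, and the proline isomerase Fkbp14 of −0.85. The 5 that rose were Canx, Creld2, Dnajc3, Cnpy3 and Fkbp2, named after their values were seen. The call of Cnpy3 (0.31, edgeR adjusted p = 0.0195) was lost without replicate 3 of Scr (0.23, adjusted p = 0.0531). Among 18 disulfide isomerases and oxidases besides Pdia4, 3 rose and 6 fell, with log2 fold changes of −0.57 for P4hb, which is also a subunit of the collagen prolyl hydroxylase, −0.56 for Pdia5 and −0.48 for Tmx3. The 3 that rose, Pdia3 (0.45), Pdia6 (0.42) and Erp44 (0.48), were named after their values were seen.

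Among UPR sensors, proteases and transcription factors besides Ern1, Atf6 and Xbp1, 2 of 14 tested genes rose and 6 fell. Over all loci, 28.4% were higher and 29.6% lower. Mbtps1 and Mbtps2 encode the site-1 and site-2 proteases that cut ATF6, and they moved in opposite directions, with log2 fold changes of −0.85 and 0.65, where the Mbtps2 locus also holds Yy2. Creb3l2, an ATF6-like factor that drives secretory genes, had −1.48. Eif2ak3, the gene of PERK, had −0.57 (edgeR adjusted p = 0.000435, singled out after its values were seen), so that the mRNAs of the 3 sensors did not share a direction. Of 12 genes of the PERK arm and its stress-induced effectors, 6 rose and 3 fell. Ppp1r15a and Ppp1r15b, which encode the phosphatase subunits that reverse eIF2α phosphorylation, rose by 1.35 and 0.76, and Ddit4, an inhibitor of mTORC1, fell by 2.08 on the log2 scale. Several of these genes can also answer to stresses outside the ER, since eIF2α has kinases besides PERK. The source of their changes here was not tested.

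The counts of these lists stand beside 28.4% higher and 29.6% lower among all loci. Of 24 tested genes of ER-associated degradation, 6 rose and 6 fell. The locus of Ube2g2, a ubiquitin-conjugating enzyme, which also holds Sumo3, had a log2 fold change of 0.94, the ubiquitin ligase Rnf5 −0.81 and Ufd1, a cofactor of the p97 segregase, 0.55. Of 17 genes of translocation and signal cleavage, 5 rose and 3 fell, the latter Spcs3 (−1.49) and Spcs1 (−1.05) of the signal peptidase and Ssr2 (−1.11) of the translocon-associated complex. Of 22 genes of N-glycosylation and glycan trimming, 7 rose and 7 fell. Stt3b, a catalytic subunit of the oligosaccharyltransferase, had 0.65 and its partner Magt1 −0.76. Ostc, another oligosaccharyltransferase subunit and not named here as a partner of Stt3b, had −0.65. Of 23 loci of ER exit and KDEL retrieval, 4 rose and 8 fell, among them the COPII coat genes Sar1a (−0.78) and Sec23a (−0.77) and Kdelr1 (−0.49), a receptor that returns BiP and other escaped luminal chaperones. Exons of Fkbp14, Htra2, Ppp1r15a, Ppp1r15b, Rnf5, Sec23a, Spcs1, Spcs3, Ssr2 and Ufd1 overlap genes on the other strand. So do exons of Dnajb9, Eif2ak3, Pdia3, Pdia6, Syvn1 and Trap1.

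**Figure D3:**
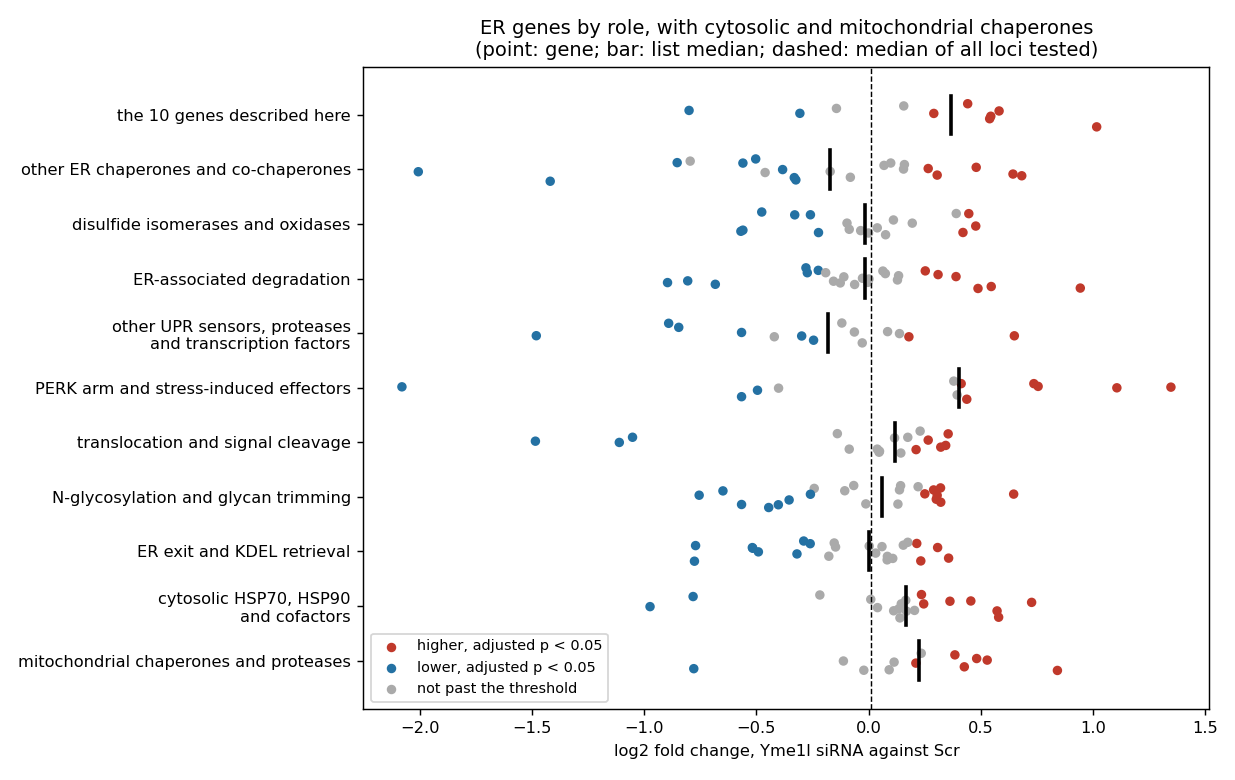
Log2 fold change of Yme1l siRNA against Scr (linear axis of log2 values) for each tested gene of the lists by role; thick bars are list medians and the dashed line is the median of all loci. The median of the 10 genes is 0.37, that of the PERK arm 0.40 and that of other ER chaperones −0.17, and every list holds genes called in both directions.

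The chaperone families of the 10 genes have members in other compartments. Of 19 cytosolic HSP70 and HSP90 genes and cofactors, 7 rose and 2 fell, with a median of 0.17, and of 12 mitochondrial chaperones and proteases 6 rose and 1 fell, with a median of 0.22, beside 28.4% higher, 29.6% lower and a median of 0.009 among all loci. The mitochondrial HSP70 gene Hspa9 had a log2 fold change of 0.84, beside 0.55 for Hspa5 of the ER and 0.04 for Hspa8 of the cytosol, which did not pass the test (edgeR adjusted p = 0.792). The HSP90 genes Hsp90aa1 (0.73) and Hsp90ab1 (0.36) of the cytosol and Trap1 (0.43) of mitochondria rose (edgeR adjusted p = 0.00118, 0.0156 and 0.00107), beside 0.16 for Hsp90b1. Hspa8, Hsp90aa1, Hsp90ab1 and Trap1 were singled out as relatives after their values were seen, and differences between paralogs were not tested. The call of Hsp90ab1 was lost without replicate 1 of Scr (0.35, edgeR adjusted p = 0.0533) or replicate 2 of Scr (0.34, adjusted p = 0.0613). The genes with the smallest adjusted p-values in these lists further included the cytosolic co-chaperones Stip1 (0.58) and Bag3 (−0.78), the small heat shock protein gene Hspb1 (−0.97) and the mitochondrial protease Htra2 (0.53) and iron-sulfur co-chaperone Hscb (−0.78).

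Over all genes, 37 held an exact ERSE in a promoter window, and 10 of them belong to the 163 ER genes considered here. Of the 34 found in the count table, 18 were tested. Of these 18, 6 rose, 2 fell and 10 did not pass the test, and their median log2 fold change was 0.21, against 28.4% higher, 29.6% lower and a median of 0.009 among all loci tested. The 6 were Hspa5, Canx, Creld2 (0.68), Pdia6, Dnajc3 (0.27) and Acacb (0.51), and the 2 were Adcy3 (−0.42) and Hnrnpa3 (−0.66). The groups overlapped for Dnajc3 (edgeR adjusted p = 0.0459), and its call was lost without any 1 of replicates 1 to 3 of Scr and replicates 1 and 2 of Yme1l siRNA, with values between 0.19 and 0.29 (edgeR adjusted p between 0.0732 and 0.141). Acacb lost its call without replicate 2 of Scr (0.48, edgeR adjusted p = 0.053). Hsp90b1, with 2 copies, and Calr were among those that did not pass, and Syvn1, a ubiquitin ligase of ER-associated degradation, had −0.003 (edgeR adjusted p = 0.979). Among the 8 of the 10 genes that had a window, an exact copy thus went with 1 rise and 2 genes that did not pass the test. Of those with a window but no exact copy, Dnajb9, Sdf2l1 and Ern1 rose and Pdia4 and Xbp1 fell.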

How the data were processed

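Libraries of 3 Scr and 3 Yme1l siRNA cultures were analysed. Poly(A) RNA was prepared with a stranded TruSeq kit. The authors mapped paired-end reads to mm10 (Ensembl) with HISAT2 2.0.4, assembled transcripts with StringTie 1.3.3 and compared groups with Cuffdiff 2.2.1. The table used here gives whole-number counts for each locus, as the authors deposited them before any scaling; the counting program, its use of strand and its treatment of reads with several matches are not given in the sources used here. A further table of the authors' own comparison (group levels, fold changes, p-values) was not used, and Cuffdiff could not be repeated from counts.

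From the counts, edgeR 4.0.16 (R 4.3.3) computed TMM factors and a quasi-likelihood test without covariates on loci passing filterByExpr (minimum 10 counts, 15 in total), with Benjamini-Hochberg adjustment over all 14499 loci. SE is the size of the log2 fold change divided by the square root of F. The test was checked on simulated counts in which only a small part of the genes changed. That check does not cover a shift as wide as the 58.0% of loci called here. With 3 against 3, an exact permutation test of a single value cannot go below p = 0.1. The biological coefficient of variation was 0.131. Same-group libraries differed by more than counting noise (chi-square per degree of freedom 10.3 to 76.3). Of the loci tested, 398 join several gene names. Coordinates and exon lengths came from GENCODE M21 (mm10), promoters from RefSeq, and near-identical transcripts from BLAST 2.17.0. DESeq2 1.42.0, limma-voom (limma 3.58.1), other scale factors, other filters, removal of mtDNA loci, a stricter threshold, a replicate block and leaving out each library were alternatives.

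All 10 genes were named, with Yme1l1, from each list the 3 genes lowest in adjusted p, and the 5 loci nearest to Hspa5. The members and lists were chosen with earlier results of these data known, so they get no test of their own. Protein sequences were not analysed here.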

Additional observations from a re-analysis of the deposited data

How the results depend on the processing

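Over 16 alternatives, between 4 and 7 of the 10 genes were called higher and 2 lower in each, and their median log2 fold change ranged from 0.28 to 0.47, that of all loci from −0.001 to 0.073. Of all loci, between 2949 and 4589 were called higher and between 3225 and 4460 lower, with the number of loci tested depending on the filter. Hspa5, Hyou1, Sdf2l1, Atf6, Pdia4 and Xbp1 kept their calls in all 16, and Calr was called in none. Hsp90b1 was also called without scale factors (0.22, edgeR adjusted p = 0.0348), and Dnajb9 and Ern1 lost their calls at an adjusted p under 0.01. At that threshold, 23 other ER genes were higher and 35 lower, and of all loci 2949 were higher and 3225 lower. Leaving out 1 library each gave between 5 and 6 higher genes among the 10, and between 3433 and 4075 higher among all loci. With the replicate number as a block, 6 of the 10 were higher and 2 lower, beside 4227 higher and 4460 lower among all loci. No call changed with the block among the genes named in the text, Yme1l1 included. Among those outside the 10, Dnajc3 lost its call with limma-voom (0.26, adjusted p = 0.0501), and Dnajc3, Cnpy3, Hsp90ab1, Acacb, Hnrnpa3 and Gm6627 lost theirs at an adjusted p under 0.01. Deviations of same-numbered libraries correlated at 0.0409, 0.116 and 0.192. The sources used here do not state whether same-numbered cultures were paired, and low correlations cannot decide it. Counts of the 10 genes in a library ran from 569 for Sdf2l1 to 88525 for Hspa5. The spread between 3 cultures limits the precision, and the part of counting noise was not separated for each gene.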

Other observations

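The spread between cultures was larger after Yme1l knockdown for each of the 10 genes. The coefficient of variation over 3 libraries was higher in Yme1l siRNA than in Scr for 10 of 10, against 55.6% of all loci tested and 58.1% of the 9129 loci that averaged 500 counts or more. It went from 2.65% to 11.3% for Hspa5, from 7.07% to 19.9% for Dnajb9 and from 1.27% to 5.43% for Xbp1. The rise was smaller for Sdf2l1 (6.89% to 8.33%), Calr (4.94% to 6.32%) and Pdia4 (2.58% to 4.22%). The 10 genes share libraries and are not independent, the pattern was noticed in these data, and the difference in spread was not tested.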
